A study of Arabidopsis thaliana with 3 samples.

Results

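Cut-and-paste DNA transposons of 5 groups, hAT, En/Spm, Harbinger, Pogo and Mariner, made up 354 of the 4481 distinct regions (7.90%) over which 24-nt small RNAs were quantified in Arabidopsis thaliana seedlings. A region was a member where each repeat listed for it bore 1 of the 15 name prefixes of these groups, for example ATHAT, ATENSPM, SIMPLEGUY, LIMPET or ATTIR. The members carried 38 repeat names. They comprised 127 hAT, 113 En/Spm, 51 Harbinger, 51 Pogo and 11 Mariner regions, and 1 mixed region listed under a Pogo and a hAT name. Small RNA libraries had been made from total RNA of in vitro grown seedlings, 10 days old and kept in liquid medium. There was 1 library each of ddb2-3 (allele DsLoxHs195_05H), nrpd1a (allele Salk_583051) and WT (Col). DDB2 is a subunit of the complex that recognises damaged DNA in global genome repair, and NRPD1 carries the catalytic centre of the plant RNA polymerase IV (Pol IV). The series asks how repair factors of this kind bear on the methylation landscape. Each mutant was a single allele, no group was replicated, and the tables hold small RNA levels but no transcript levels, so the genotypes rest on the labels.

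These transposons encode, or borrow, a transposase that excises the element at its terminal inverted repeats and inserts it elsewhere. Many copies are short derivatives without a transposase gene of their own. In plants such copies are kept silent in part by RNA-directed DNA methylation. Pol IV transcribes them, RDR2 makes the transcript double-stranded, DCL3 cuts it to 24-nt siRNAs, and AGO4 loaded with these guides the methyltransferase DRM2 to cytosines in all contexts. hAT elements are relatives of maize Ac, En/Spm elements are also called CACTA transposons, Harbinger elements form a superfamily of their own with maize PIF, and Pogo and Mariner belong to the Tc1/mariner superfamily.

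The sequences below carry the main contrasts among the members. They were read by coordinates from the RefSeq genome TAIR10.1, whose chromosome coordinates are those of the TAIR10 build of the deposited regions. The first 3 members had the largest ddb2-3 to WT ratios among members of at least 10 RPM (reads scaled to the library's total) in ddb2-3 or WT, and each holds a run of GA repeats, the longest of which is in capitals.
LIMPET1, chr2:4650263-4650400, plus strand: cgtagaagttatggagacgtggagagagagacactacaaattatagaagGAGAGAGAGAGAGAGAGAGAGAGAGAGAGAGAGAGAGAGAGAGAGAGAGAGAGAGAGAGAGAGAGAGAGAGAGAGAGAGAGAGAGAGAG
HARBINGER, chr2:1803532-1803765, plus strand: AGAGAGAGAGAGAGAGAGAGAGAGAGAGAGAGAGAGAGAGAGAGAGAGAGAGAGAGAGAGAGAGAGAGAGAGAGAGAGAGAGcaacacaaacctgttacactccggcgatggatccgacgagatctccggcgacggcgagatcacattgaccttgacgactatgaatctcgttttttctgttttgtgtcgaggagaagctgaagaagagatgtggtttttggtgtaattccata
ATENSPM5, chr1:15645800-15645900, plus strand: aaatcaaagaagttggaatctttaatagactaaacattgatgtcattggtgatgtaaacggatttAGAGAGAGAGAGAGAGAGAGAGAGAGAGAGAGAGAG

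TAG2, a hAT element, is shown in 4 copies because copies of the same name differed in ddb2-3. Capitals mark the 53 bases that copies a and b have in common, made of stretches of at least 24 bases found in both. Copies c and d share no 24-base stretch with copy a, although copy c is linked to it through other TAG2 regions.
TAG2 a, chr1:27932605-27932700, plus strand: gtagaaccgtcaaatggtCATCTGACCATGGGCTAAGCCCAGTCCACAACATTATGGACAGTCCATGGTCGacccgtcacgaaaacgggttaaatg
TAG2 b, chr3:11097259-11097500, plus strand: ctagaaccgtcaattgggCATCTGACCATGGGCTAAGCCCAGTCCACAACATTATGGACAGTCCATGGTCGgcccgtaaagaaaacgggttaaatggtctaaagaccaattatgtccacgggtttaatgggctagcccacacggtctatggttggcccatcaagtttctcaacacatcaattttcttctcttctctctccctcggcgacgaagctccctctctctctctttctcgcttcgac
TAG2 c, chr1:5679401-5679600, plus strand: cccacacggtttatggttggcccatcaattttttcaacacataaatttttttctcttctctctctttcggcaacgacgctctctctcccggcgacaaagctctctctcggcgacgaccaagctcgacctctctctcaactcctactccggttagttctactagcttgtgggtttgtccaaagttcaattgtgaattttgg
TAG2 d, chr3:16787850-16787900, plus strand: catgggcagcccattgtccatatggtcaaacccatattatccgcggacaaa

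The next 3 regions, all listed as SIMPLEHAT2, are shown because strongly covered copies at 3 places in the genome share a stretch of sequence. Capitals mark what the mixed region shares with the other two in stretches of at least 24 bases.
ATHPOGON3 and SIMPLEHAT2, chr3:17382501-17382600, plus strand: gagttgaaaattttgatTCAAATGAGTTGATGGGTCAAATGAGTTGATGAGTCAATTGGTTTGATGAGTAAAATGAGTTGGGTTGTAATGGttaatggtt
SIMPLEHAT2 a, chr2:9633601-9633800, plus strand: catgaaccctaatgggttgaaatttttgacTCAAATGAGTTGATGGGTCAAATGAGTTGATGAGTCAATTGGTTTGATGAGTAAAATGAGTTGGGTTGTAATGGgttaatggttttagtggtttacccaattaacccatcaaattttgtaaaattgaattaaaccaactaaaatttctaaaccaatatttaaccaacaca
SIMPLEHAT2 b, chr5:8769501-8769600, plus strand: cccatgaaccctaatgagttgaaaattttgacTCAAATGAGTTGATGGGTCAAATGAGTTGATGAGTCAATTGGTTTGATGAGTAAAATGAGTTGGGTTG

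The last pair are the member with the highest WT level, ATHATN7, and the sole member at least 2-fold lower in ddb2-3, ATHATN10.
ATHATN7, chr5:5128857-5129000, plus strand: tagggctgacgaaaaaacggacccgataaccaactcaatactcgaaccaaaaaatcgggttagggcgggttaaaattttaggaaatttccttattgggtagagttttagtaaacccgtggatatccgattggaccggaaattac
ATHATN10, chr3:21981201-21981300, plus strand: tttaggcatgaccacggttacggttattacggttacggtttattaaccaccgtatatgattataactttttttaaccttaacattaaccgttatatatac

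The members were spread over both chromosome compartments, with 187 pericentromeric regions, whose midpoint lay within 3 Mb of the centromere, and 167 arm regions. En/Spm members were mostly pericentromeric (98 of 113), whereas hAT members (83 of 127), Harbinger members (36 of 51) and Mariner members (9 of 11) lay mostly in the arms. Regions had been classed by cytosine context and direction of a methylation difference, and 162 members were CHH-hyper, 97 CHG-hyper, 58 CHG-hypo, 45 CHH-hypo, 2 CG-hyper and 1 CG-hypo, with 11 members in 2 classes. Which genotypes had been compared to define these classes is not given in the sources used here. By the RefSeq annotation, 229 members were intergenic, 109 lay in pseudogenes (the annotation of most transposon genes), 6 in introns, 6 in untranslated or non-coding exons and 4 in coding exons.

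The groups also differed in base composition, which the choice of members did not use. The median GC content was 22% in Mariner, 26% in Pogo, 32% in Harbinger, 37% in hAT and 41% in En/Spm regions. hAT regions held the most CG sites, a median of 8.70 per 100 bp, and the median Mariner region held none. Over all members the median GC content was 36.1%, and 36.4% over all distinct regions. Copies were often alike: 174 members (49.2%) shared a 24-base stretch other than a dinucleotide run with another member, in 45 sets of up to 21 regions, and 60 members consisted to at least 90% of 24-mers found once in the genome. If reads with several genomic matches were counted at each match, copies that share sequence are not separate measurements. The treatment of such reads is not given in the sources used here.

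Over the members the libraries held 38866 reads in ddb2-3, 106 in nrpd1a and 23538 in WT. The reads were recovered from the deposited RPM values, in which 1 read is worth 0.120 RPM in ddb2-3, 0.727 RPM in nrpd1a and 0.169 RPM in WT. These steps correspond to scaling totals of 8345931, 1376238 and 5913669 reads, in the same order. Which reads these totals count is not given in the sources used here. The nrpd1a total was the smallest, but whether that library was sequenced less deeply is not known. All 354 members reached 1 RPM in at least 1 library. Intervals given below are 95% exact binomial (Clopper-Pearson) intervals on reads. They cover counting error only, compare these libraries and not the genotypes, and are too narrow where a read counts in more than 1 region. As whole seedlings were used, fewer cells with an siRNA and less siRNA per cell cannot be told apart.

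Without DDB2 the siRNA level over these transposons was slightly above WT as a whole. The mean per member was 13.2 RPM in ddb2-3 and 11.2 RPM in WT, and the median 5.33 RPM in ddb2-3 and 4.82 RPM in WT. The log2 ratio of the summed levels was 0.23 (0.20 to 0.25), against 0.13 over all distinct regions. Per member, on the scale of log2(RPM + 1), the median ratio was 0.11, against 0.17 over all distinct regions. The ddb2-3 level was above WT in 213 members and below it in 141, against 2841 and 1640 of all 4481 distinct regions. The median distinct region of the series was itself 0.20 higher in ddb2-3 on the log2 scale, and after dividing the ddb2-3 values by that median ratio the summed log2 ratio of the members was 0.028. The 60 members with at least 90% unique 24-mers, a set chosen after the data were seen, had a summed log2 ratio of 0.34 (0.26 to 0.41). After the same division it was 0.14. Their median ratio was 0.35, and 44 of the 60 were above WT.

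By size, 21 members (5.93%) were at least 2-fold higher in ddb2-3 on the log2(RPM + 1) scale, where 5.22% of all tested regions were. Only 1 member (0.282%) was at least 2-fold lower, against 1.67% of all tested regions. No test of the genotypes is possible with 1 library each. Of the members past 2-fold in either direction, 13 stayed below 10 RPM in both ddb2-3 and WT. With the median-ratio scaling the counts were 13 higher (background 2.99%) and 2 lower (2.03%), and with at least 10 RPM required in 1 of the 3 libraries, 9 higher (background 4.2%) and 0 lower (0.82%) among 113 members. With a pseudocount of 0.1 RPM they were 48 higher (background 10.5%) and 6 lower (3.26%).

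**Figure D1:**
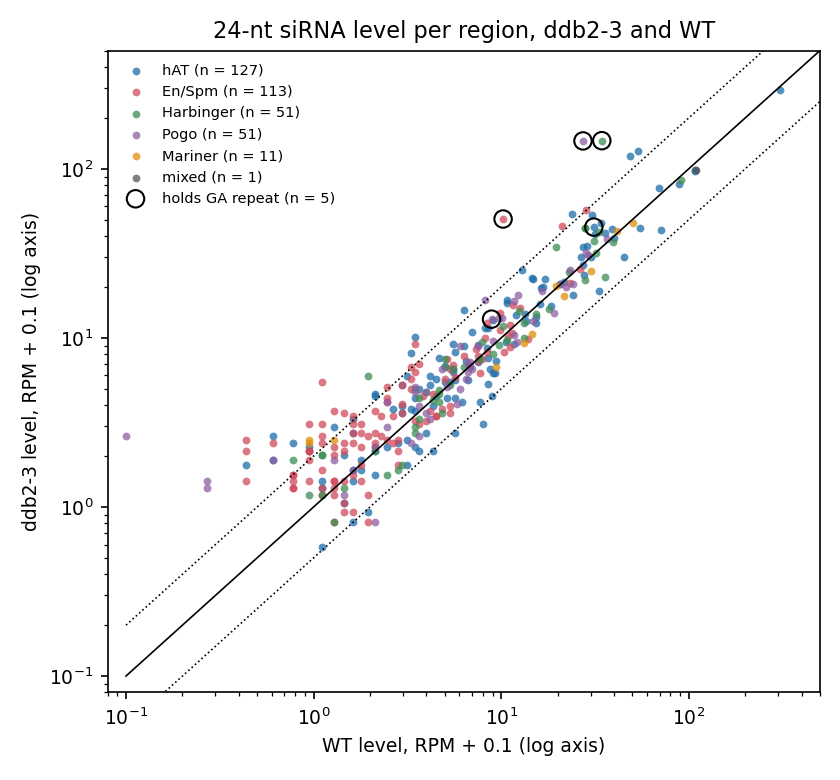
24-nt siRNA level of each of the 354 members in ddb2-3 (vertical axis) and WT (horizontal axis), in RPM with 0.1 added, on log axes, coloured by transposon group; the solid line marks equal levels, dotted lines a 2-fold difference on this scale, and circles the 5 members with a GA repeat. Most members lie between the dotted lines, and 3 circled members stand far above them, at 146, 147 and 50.4 RPM in ddb2-3.

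On the log2(RPM + 1) scale the largest differences were found in regions that hold GA repeats, although the tables give 1 value per region and do not show where in it the reads lie. By plain ratio, some regions of few reads given below lay higher. GA repeated 6 times, on either strand, was found in 5 of 354 members (1.41%) and in 25 of all 4481 regions (0.558%). LIMPET1 on chromosome 2 (4650263 to 4650400), a Pogo region 8045 bp upstream of AT2G11620, had 146 RPM in ddb2-3, no read in nrpd1a and 27.2 RPM in WT. This was 5.37-fold higher in ddb2-3 than in WT (4.56 to 6.37). HARBINGER on chromosome 2 (1803532 to 1803765), 3060 bp upstream of the light-harvesting gene LHCB2.2, had 147 RPM in ddb2-3, no read in nrpd1a and 34.3 RPM in WT, 4.28-fold higher (3.68 to 4.99). ATENSPM5 on chromosome 1 (15645800 to 15645900) had 50.4 RPM in ddb2-3, no read in nrpd1a and 10.1 RPM in WT, 4.97-fold higher (3.79 to 6.63). The GA runs in capitals above span 89, 82 and 36 bases in these 3 members, all pericentromeric. Inside such runs the 3 members consist of the same 24-mers, so if reads with several matches were counted at each, the 3 are largely 1 measurement, which was not tested. The sharing also reaches beyond the members. The median 24-mer of the LIMPET1 region occurs 3993 times in the genome, that of the HARBINGER region 2 times and that of the ATENSPM5 region 1 time. Whether the reads in such runs arose from these elements was not tested.

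The other GA-containing members differed less. A LIMPET1 region with a run of 18 bases (chromosome 2, 6044026 to 6044300) had 12.8 RPM in ddb2-3, 1 read in nrpd1a and 8.79 RPM in WT, and a TAG2 region with a run of 12 bases (chromosome 5, 15638801 to 15639000) had 45.2 RPM in ddb2-3, no read in nrpd1a and 31.1 RPM in WT. All 5 were thus above WT. Of the 20 GA-containing regions that are not members, 15 were above WT, against 2628 of all 4127 regions that are not members. At least 2-fold higher were 10 of the 20, against 5.16% of all tested regions that are not members. The 5 members held 8.62% of the summed ddb2-3 level and 2.80% of the summed WT level. Without them the log2 ratio of summed levels over the members was 0.14 (0.11 to 0.16), and -0.061 after median-ratio scaling.

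The search counts a run only in the GA or TC reading, so a run of 12 bases that reads CT 6 times is not counted, and TAG2 copy b and the window around it hold such a run. Runs of at least 12 bases in either phase lay in 7 members (1.98%) and in 28 of all regions (0.625%). Above WT were 7 of 7 members and 23 of 28 regions, against 213 of all 354 members and 2841 of all 4481 distinct regions. The sum over the other 347 members was 0.090 (0.065 to 0.11), or -0.11 under median-ratio scaling. Of these 347, 16 were at least 2-fold higher, against 5.22% of all tested regions.

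Among the groups, En/Spm and Pogo members had the highest summed ratios, with overlapping intervals, and Mariner members the lowest. En/Spm regions averaged 5.77 RPM in ddb2-3 and 4.28 RPM in WT, with 78 of 113 above WT. Of the 113, 9 (7.96%) were at least 2-fold higher, against 5.22% of all tested regions and 6.55% of all pericentromeric ones. The log2 ratio of the En/Spm sums was 0.43 (0.37 to 0.50). Without the GA-containing member it was 0.35 (0.28 to 0.41). Pogo regions averaged 12.3 RPM in ddb2-3 and 9.25 RPM in WT, a log2 ratio of 0.41 (0.34 to 0.47), which becomes 0.099 (0.027 to 0.17) without GA-containing members. Harbinger regions averaged 15.5 RPM in ddb2-3 and 12.5 RPM in WT, a log2 ratio of 0.31 (0.25 to 0.37), which becomes 0.091 (0.030 to 0.15) without the GA-containing one. In both groups most of the summed difference thus sat in GA-containing regions.

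hAT regions averaged 18.1 RPM in ddb2-3 and 16.3 RPM in WT, a log2 ratio of 0.15 (0.12 to 0.18), which turns to -0.048 under the median-ratio scaling and becomes 0.051 (0.016 to 0.085) without runs of 12 bases in either phase. Of the hAT members, 8 (6.30%) were at least 2-fold higher, close to the 5.93% of all members, and 1 was lower. The 11 Mariner regions averaged 16.9 RPM in ddb2-3 and 18.4 RPM in WT, a log2 ratio of -0.12 (-0.23 to -0.011), with 5 above and 6 below WT and none past 2-fold. By median, which single regions do not carry, En/Spm was at 0.26, hAT at 0.11, Pogo at 0.071, Harbinger at -0.0033 and Mariner at -0.063. The groups overlapped widely region by region.

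**Figure D2:**
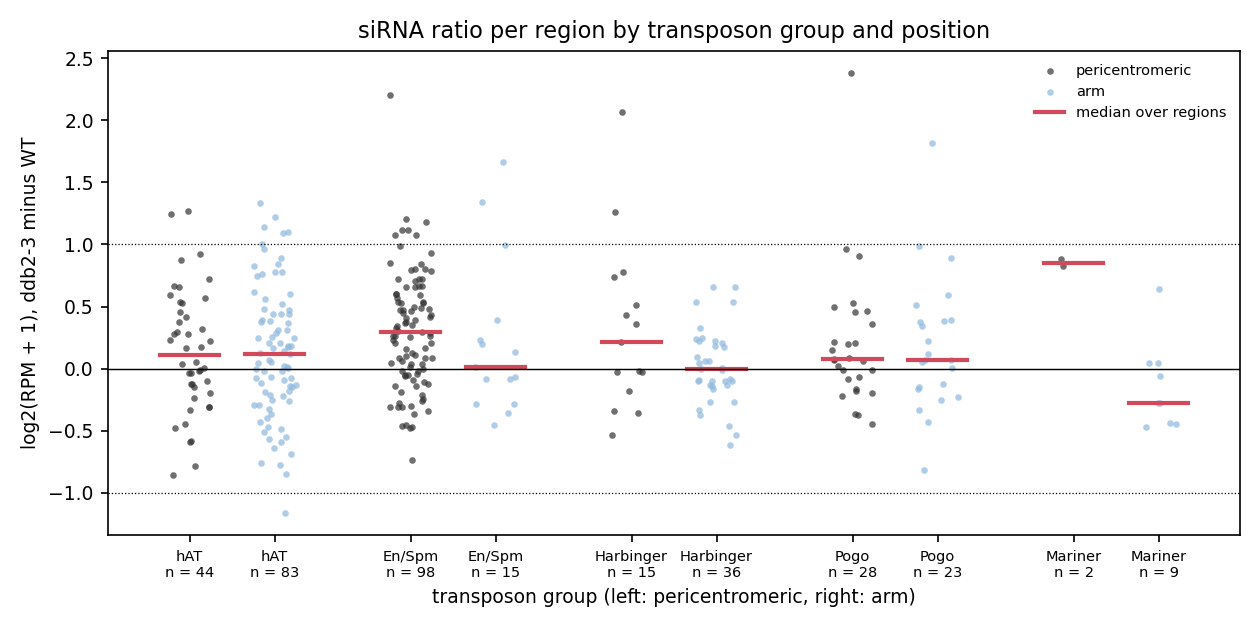
Difference of log2(RPM + 1), ddb2-3 minus WT, for each member (points, spread sideways at random) by transposon group, pericentromeric members to the left and arm members to the right; red bars are medians over regions, and dotted lines mark 2-fold. The mixed region is not drawn. Median bars lie between -0.28 for 9 arm Mariner regions and 0.85 for the 2 pericentromeric ones, and all groups straddle 0 except those 2 regions.

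Position went with the ratio. Pericentromeric members averaged 10.4 RPM in ddb2-3 and 7.18 RPM in WT, a summed log2 ratio of 0.53 (0.49 to 0.57), or 0.33 (0.28 to 0.37) without the GA-containing ones and 0.20 (0.16 to 0.24) without runs of 12 bases in either phase, which becomes 0.0025 under the median-ratio scaling, and 122 of 187 were above WT. Arm members averaged 16.3 RPM in ddb2-3 and 15.8 RPM in WT, a log2 ratio of 0.044 (0.014 to 0.073), which turns to -0.15 under the median-ratio scaling, and 91 of 167 were above WT. At least 2-fold higher were 12 pericentromeric members (6.42%) and 9 arm members (5.39%), against 6.55% of all pericentromeric and 3.27% of all arm regions. The median ratio per member was 0.21 near the centromeres and 0.043 in the arms, against 0.31 and -0.0049 over all distinct regions. Over all distinct regions the same split gave summed ratios of 0.30 near the centromeres and -0.051 in the arms, with 1947 of 2674 and 894 of 1807 above WT. For regions named VANDAL or ATMU, which are Mutator-like DNA transposons, it gave 0.30 and -0.077, and for ATREP and HELITRON regions, which are rolling-circle transposons, 0.035 and -0.065. Whether the members differ from these cannot be tested with 1 library per genotype.

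Within the groups, pericentromeric En/Spm regions had a median ratio of 0.29 (98 regions) and those of the arms 0.012 (15 regions), while hAT regions had medians of 0.11 near the centromeres and 0.11 in the arms. By sum, hAT was at 0.41 (0.35 to 0.47) near the centromeres and 0.045 (0.0060 to 0.084) in the arms. Both overlapping windows of TAG2 copy b are among the pericentromeric hAT regions, and without them that sum was 0.11 (0.038 to 0.18). Pericentromeric Harbinger regions had a sum of 1.02 (0.90 to 1.14), and without the GA-containing HARBINGER region, 1 of 15, it was 0.30 (0.15 to 0.45).

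Of the methylation classes with over 2 members, CHG-hyper had the largest share above WT. They averaged 8.36 RPM in ddb2-3 and 6.17 RPM in WT, or 0.44 (0.38 to 0.50) as log2 ratio of the sums, with 71 of 97 above WT and 11 at least 2-fold higher, or 0.32 (0.26 to 0.39) without the TAG2 window with a run of 12 bases. Over all CHG-hyper regions of the series the sum was 0.37 (0.36 to 0.38), with 999 of 1289 above WT, and 7.91% were at least 2-fold higher, against 11.3% of the CHG-hyper members. CHH-hyper members averaged 17.0 RPM in ddb2-3 and 15.6 RPM in WT, a log2 ratio of 0.12 (0.087 to 0.15), which turns to -0.082 under median-ratio scaling and becomes 0.052 (0.021 to 0.082) without runs of 12 bases in either phase. CHG-hypo members averaged 6.19 RPM in ddb2-3 and 6.0 RPM in WT, a log2 ratio of 0.046 (-0.035 to 0.13), which turns to -0.15. CHH-hypo members averaged 19.0 RPM in ddb2-3 and 14.2 RPM in WT, a log2 ratio of 0.42 (0.37 to 0.48), but 3 of the 45 hold a GA repeat, and without them it turned to -0.047 (-0.11 to 0.018). The CHG-hypo members split by position, at 0.25 (0.15 to 0.36) over 35 pericentromeric and -0.27 (-0.40 to -0.14) over 23 arm regions. The 3 members of the CG classes were too few to describe as classes.

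Repeat names within a group differed in their ratio. Summed over its 24 regions, SIMPLEHAT1 had a log2 ratio of -0.34 (-0.43 to -0.24), with 20 of them below WT and a median of -0.23, whereas its fellow hAT element TAG2 had 0.57 (0.50 to 0.64) and a median of 0.48 over 13 regions. The TAG2 sum counts copy b in 2 overlapping windows, and without the 3 TAG2 regions with a run of 12 bases it was 0.17 (0.078 to 0.26), with a median of 0.062. The highest SIMPLEHAT1 region (chromosome 1, 55701 to 55800), 964 bp downstream of IQD18, had 43.6 RPM in ddb2-3, 1.45 RPM in nrpd1a and 70.9 RPM in WT, a ratio to WT of 0.616 (0.533 to 0.710). A second window nearby (56201 to 56300) had 1.8 RPM in ddb2-3, no read in nrpd1a and 0.507 RPM in WT. Within SIMPLEHAT1 16 regions share 24-mers with one another, so they are not separate measurements if such reads count at each copy.

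Among En/Spm names, ATENSPM3 had a median of 0.75, or 0.61 under the median-ratio scaling, with 10 of 10 regions above WT. Its levels were low, at 0.338 to 11.0 RPM in WT. Of its 10 regions 9 were pericentromeric, where 1947 of 2674 of all distinct regions were above WT. Some ATENSPM3 regions fall in sets, linked by shared 24-mers, that also hold ATENSPM7 regions. ATENSPM2 stood at 0.58 (0.41 to 0.74) by sum with 12 of 16 above WT, and ATENSPM6 at 0.33 (0.13 to 0.53) with 11 of 18. ATENSPM5, the most frequent En/Spm name, had 0.39 over 25 regions and 0.085 (-0.040 to 0.21) without its GA-containing region. SIMPLEGUY1, the most frequent Harbinger name, had 0.048 (-0.018 to 0.11) over 36 regions, with 16 above WT and none past 2-fold. For LIMPET1 the sum of 0.79 over 15 regions became -0.026 (-0.16 to 0.11) without its 2 GA-containing regions.

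**Figure D3:**
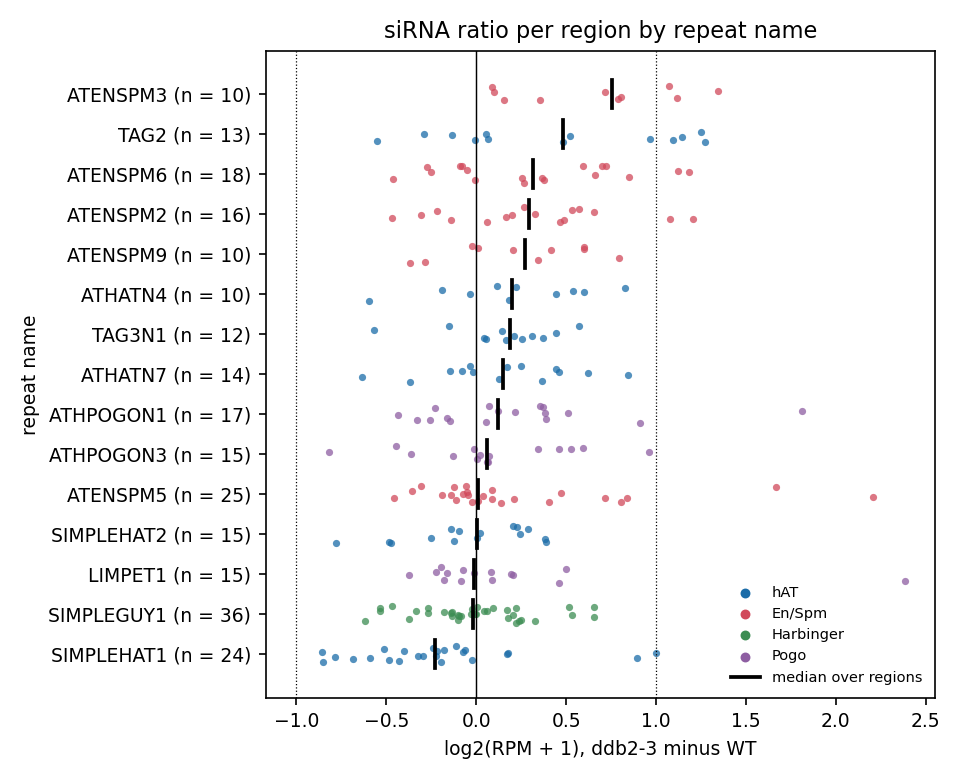
Difference of log2(RPM + 1), ddb2-3 minus WT, for each region (points) of the repeat names with at least 10 members, coloured by transposon group; black bars are medians over regions, and dotted lines mark 2-fold. Medians lie between -0.23 for SIMPLEHAT1 and 0.75 for ATENSPM3, and the single high points of LIMPET1 and ATENSPM5 at 2.38 and 2.21 are GA-containing regions.

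Strongly covered TAG2 copies lay on both sides of WT. Copy b (chromosome 3, 11097259 to 11097500, CHH-hyper), 2103 bp downstream of AT3G29130, had 120 RPM in ddb2-3, 0.727 RPM in nrpd1a and 48.9 RPM in WT, 2.45-fold higher in ddb2-3 than in WT (2.14 to 2.80). A CHG-hyper window that contains it (to 11097600) had 128 RPM in ddb2-3, 0.727 RPM in nrpd1a and 53.4 RPM in WT, so these are 2 counts of largely the same reads. Copy a (chromosome 1, 27932605 to 27932700), in an intron of AT1G74290, had 53.9 RPM in ddb2-3, no read in nrpd1a and 23.8 RPM in WT, 2.26-fold higher (1.87 to 2.75). Copies a and b share 30 24-mers, those of the capitals above.

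A further TAG2 region at chromosome 3, 10459801 to 10459885, in an untranslated or non-coding exon of UMAMIT45, annotated as a nodulin MtN21-like transporter gene, consists wholly of unique 24-mers and shares none with copies a and b. It had 14.5 RPM in ddb2-3, no read in nrpd1a and 6.26 RPM in WT, 2.32-fold higher (1.59 to 3.45). Copy c (chromosome 1, 5679401 to 5679600) had 47.8 RPM in ddb2-3, 0.727 RPM in nrpd1a and 34.0 RPM in WT. Copies a, b and c fall in a set of 5 TAG2 regions linked by shared 24-mers, directly or through one another. These 5 are not fully separate measurements if such reads count at each copy. Copy d (chromosome 3, 16787850 to 16787900) lay below WT, with 44.7 RPM in ddb2-3, no read in nrpd1a and 55.0 RPM in WT, a ratio of 0.813 (0.699 to 0.947). The highest TAG2 region in WT (chromosome 1, 2531450 to 2531800), in a pseudogene 2330 bp upstream of the nitrate transporter gene NRT2.2, had 98.5 RPM in ddb2-3, 0.727 RPM in nrpd1a and 108 RPM in WT.

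The SIMPLEHAT2 copies shown above and the mixed region lay slightly below WT in ddb2-3. The mixed region (chromosome 3, 17382501 to 17382600) had 99.1 RPM in ddb2-3, 7.27 RPM in nrpd1a and 110 RPM in WT. SIMPLEHAT2 a (chromosome 2, 9633601 to 9633800) had 97.7 RPM in ddb2-3, 2.18 RPM in nrpd1a and 108 RPM in WT. SIMPLEHAT2 b (chromosome 5, 8769501 to 8769600) had 81.5 RPM in ddb2-3, 2.18 RPM in nrpd1a and 88.8 RPM in WT. The intervals of all 3 ratios covered 1, and the stretches these regions share span 74, 74 and 68 bases.

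The remaining members past 2-fold were mostly weakly covered. ATENSPM2 on chromosome 1 (13940601 to 13940700) was an exception, with 45.7 RPM in ddb2-3, 2.18 RPM in nrpd1a and 21.1 RPM in WT, 2.16-fold higher (1.76 to 2.66). ATHATN2 had 2 such regions on chromosome 2. The first (10579801 to 10579900), 571 bp upstream of AT2G24830, had 10.1 RPM in ddb2-3, no read in nrpd1a and 3.38 RPM in WT, 2.98-fold higher (1.81 to 5.12). The second (13481401 to 13481500), in a coding exon of AT2G31700, had 8.03 RPM in ddb2-3, no read in nrpd1a and 3.21 RPM in WT, 2.50-fold higher (1.48 to 4.4). ATENSPM5 on chromosome 5 (18200001 to 18200100) had 5.39 RPM in ddb2-3, no read in nrpd1a and 1.01 RPM, or 6 reads, in WT, 5.31-fold higher (2.26 to 15.2).

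The others past 2-fold were ATENSPM2 on chromosome 3 (13201301 to 13201400), with 9.11 RPM in ddb2-3 and 3.38 RPM in WT, ATIS112A on chromosome 2 (4336901 to 4337000), with 5.87 RPM in ddb2-3 and 1.86 RPM in WT, and 7 regions with at most 7 reads in WT. Among these 7 were 3 ATENSPM3 regions, of which that at chromosome 5, 10516201 to 10516300, had 30 reads in ddb2-3 and 7 in WT. The others of the 7 were 2 ATENSPM6 regions, ATHAT1 and SIMPLEHAT1, with 14 to 21 reads in ddb2-3 against 2 or 3 in WT. Just short of 2-fold on the log2(RPM + 1) scale, ATENSPM11 on chromosome 4 (7695901 to 7696092) had 57.4 RPM in ddb2-3, no read in nrpd1a and 28.2 RPM in WT. ATHPOGON3 on chromosome 2 (2226701 to 2226800), wholly of unique 24-mers, had 16.8 RPM in ddb2-3, no read in nrpd1a and 8.12 RPM in WT, and HARBINGER on chromosome 2 (4959801 to 4959900) had 34.4 RPM in ddb2-3, no read in nrpd1a and 19.6 RPM in WT.

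ATHPOGON1 on chromosome 1 (21105401 to 21105600) was the sole member without a WT read. It had 21 reads in ddb2-3, or 2.52 RPM, and no read in nrpd1a, at least 3.69-fold higher in ddb2-3 than in WT by the exact interval. ATHATN10 on chromosome 3 (21981201 to 21981300), 362 bp upstream of AT3G59470 and both CHG-hypo and CHH-hypo, was the sole member at least 2-fold lower, with 3.00 RPM in ddb2-3, no read in nrpd1a and 7.95 RPM in WT, a ratio of 0.377 (0.222 to 0.625). The other lower members named by group differed less. SIMPLEHAT2 on chromosome 3 (10415301 to 10415387) had 18.8 RPM in ddb2-3, no read in nrpd1a and 33.0 RPM in WT, a ratio of 0.571 (0.459 to 0.708). SIMPLEGUY1 on chromosome 1 (25401401 to 25401474), 40 bp upstream of AT1G67750, had 22.8 RPM in ddb2-3, no read in nrpd1a and 35.5 RPM in WT, a ratio of 0.641 (0.524 to 0.784).

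Median ratios were higher where WT levels were low. The 123 members under 3 RPM in WT had a median ratio of 0.35, the 131 members between 3 and 10 RPM one of 0.056, and the 100 members of 10 RPM or more one of -9.6e-05. In this order 10, 4 and 7 of them were at least 2-fold higher, against 5.22% of all tested regions at any WT level. These bins are cut on the WT value that is also the denominator of the ratio. By the interval of each ratio, 69 members lay above WT (background 25.8%), 18 below (9.89%), and 267 could not be told from it at this depth. An exact binomial test on reads with Benjamini-Hochberg adjustment over all 4481 regions called 38 members higher (background 19.3%) and 9 lower (7.03%) in ddb2-3, which compares the reads of the 2 libraries.

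**Figure D4:**
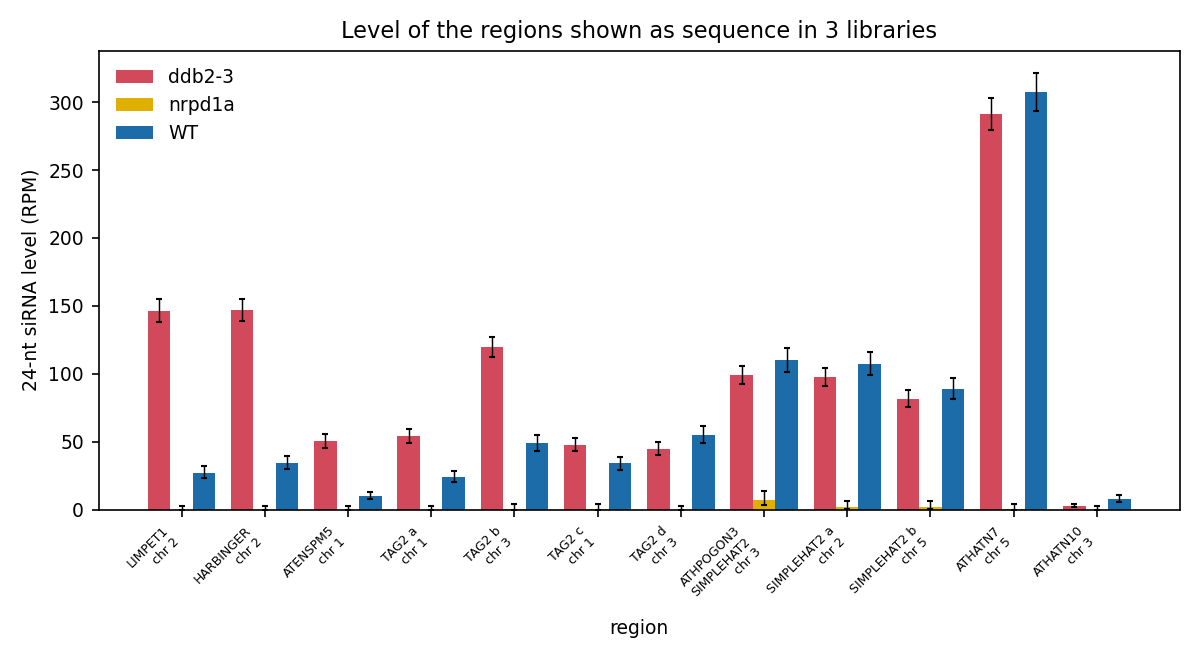
24-nt siRNA level in RPM of the 12 regions whose sequence is shown, in ddb2-3, nrpd1a and WT (bars, 1 library each), with 95% exact Poisson intervals that cover counting error only; regions follow the order in which their sequences are given, and letters match the copies named there. The 3 GA-containing regions and TAG2 a and b are higher in ddb2-3, the SIMPLEHAT2 copies and ATHATN7 are close to WT, and nrpd1a reaches at most 7.27 RPM.

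By gene context, the 6 intronic members were all above WT, with a summed log2 ratio of 0.70 (0.53 to 0.87), or 0.50 under the median-ratio scaling. Copy a of TAG2 held 53.9 of their 110 RPM in ddb2-3 and 23.8 of their 67.5 RPM in WT. The lowest of the 6 in WT had 0.169 RPM, or 1 read. The 87 members within 2 kb upstream of a coding gene had 0.076 (0.029 to 0.12), which turns to -0.12 under the median-ratio scaling. Among them 1 region was at least 2-fold higher (1.15%, background 5.22%) and 1 lower (1.15%, background 1.67%). SIMPLEHAT2 on chromosome 5 (745001 to 745100), 321 bp upstream of JKD, a zinc finger gene of root patterning, had 35.1 RPM in ddb2-3, 2.91 RPM in nrpd1a and 28.6 RPM in WT. ATTIRX1C on chromosome 5 (24703501 to 24703600), 714 bp upstream of NAC100, had 10.4 RPM in ddb2-3, no read in nrpd1a and 14.5 RPM in WT. Members in pseudogenes had a summed ratio of 0.15 (0.091 to 0.22) over 109 regions, turning to -0.045. Of these, 8 (7.34%) were at least 2-fold higher, against 5.22% of all tested regions.

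Of the 4 members in coding exons, ATHATN2 in AT2G31700 is given above. LIMPET1 in AT2G14265 had 6.47 RPM in ddb2-3 and 6.93 RPM in WT, HARBINGER in AT2G19360 6.59 RPM in ddb2-3 and 6.26 RPM in WT, and ATHATN4 in AT4G09690 6.59 RPM in ddb2-3 and 6.76 RPM in WT. None of the 4 had a read in nrpd1a. The intervals of the ratios of these last 3 members covered 1.

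Neighbouring windows with the same repeat name often differed in level. Whether they lie in the same element was not tested, and levels are not scaled by window width. Among 38 pairs of neighbouring windows with the same repeat name and a gap of up to 1 kb, the higher WT level was 2.54 times the lower in the median pair. The SIMPLEHAT1 pair on chromosome 1 described above differed most, with 70.9 and 0.507 RPM in WT, the lower on 3 reads. The SIMPLEGUY1 pair on chromosome 5 (19823101 to 19823400 and 19823501 to 19823600) had 85.6 and 1.44 RPM in ddb2-3, against 90.8 and 2.37 RPM in WT. The log2(RPM + 1) ratios of ddb2-3 to WT differed by 0.37 within the median pair.

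Without Pol IV the siRNAs of these transposons were almost absent. The nrpd1a library kept 1.94% (1.58 to 2.34) of the WT level over the members, against 3.54% (3.43 to 3.65) over all distinct regions. In that series sum, the highest region alone held 463 of 3023 RPM in nrpd1a. VANDAL or ATMU regions kept 1.41% (1.20 to 1.65) and ATREP or HELITRON regions 2.14% (1.99 to 2.29), so a low share was not particular to the members. No read was found in 285 of 354 members (80.5%), against 77.1% of all distinct regions. Of the other members, 49 had 1 read and 20 had 2 or more, with at most 10. On the log2(RPM + 1) scale 317 members (89.5%) were at least 2-fold lower, against a background of 92.9%, and none was higher, against 0.246%. If every nrpd1a level below 3 reads is raised to the floor of 2.18 RPM, 188 members (53.1%) were at least 2-fold lower, against 62.6% of all tested regions. These 188 are all the members whose WT level left room for a 2-fold difference above the floor, so at this depth the other members could not have been called this way. Each mutant was compared with the same WT library.

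By group nrpd1a kept 1.37% (0.971 to 1.87) of the WT level in hAT, 2.25% (1.26 to 3.73) in En/Spm, 1.82% (1.04 to 2.96) in Harbinger, 3.85% (2.49 to 5.69) in Pogo and 0.359% (0.00908 to 2.0) in Mariner regions. No read was found in 98 of 127 hAT, 103 of 113 En/Spm, 41 of 51 Harbinger, 33 of 51 Pogo and 10 of 11 Mariner members. These counts also depend on the WT level, whose median was lowest in En/Spm, at 2.37 RPM, where 1 nrpd1a read weighs 0.727 RPM. Pericentromeric members kept 1.68% (1.14 to 2.38) and arm members 2.07% (1.62 to 2.59), with overlapping intervals. Over all distinct regions the pericentromeric ones, which include the region of 463 RPM in nrpd1a, kept 4.75% and those of the arms 2.40%. Among classes, CHG-hyper members kept 1.09% (0.499 to 2.08), CHG-hypo 1.04% (0.339 to 2.44), CHH-hyper 2.21% (1.74 to 2.76) and CHH-hypo 1.71% (0.957 to 2.83). Over all regions of the series, CHG-hyper kept 6.62%, or 3.67% without its 1 region of highest nrpd1a level, CHG-hypo 2.24%, CHH-hyper 2.66% and CHH-hypo 3.31%. The 60 members with at least 90% unique 24-mers kept 0.203% (0.00515 to 1.13), on 1 read.

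**Figure D5:**
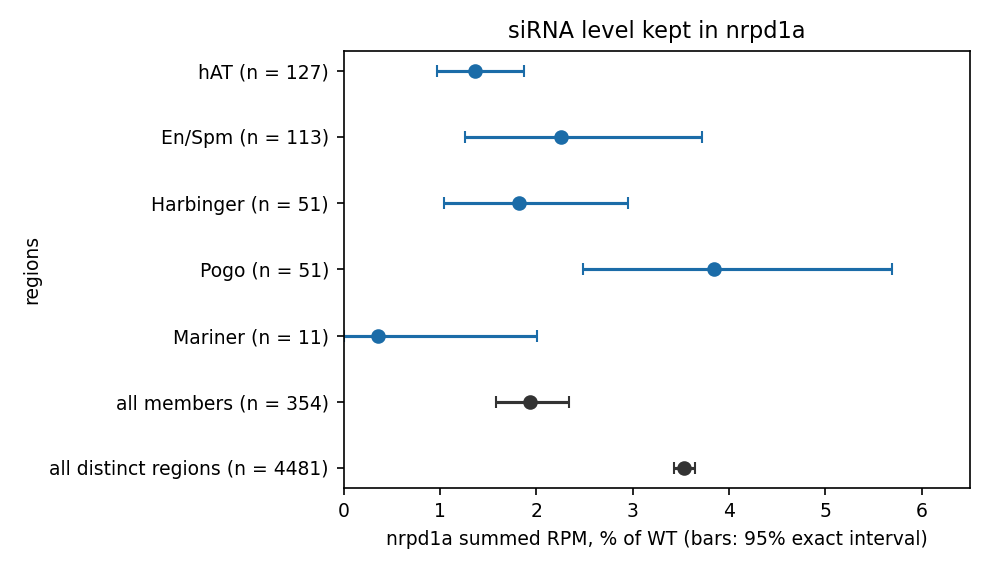
Summed 24-nt siRNA level in nrpd1a as a percentage of WT, for each transposon group, all members and all distinct regions (points), with 95% exact binomial intervals that cover counting error only. The groups range from 0.359% in Mariner to 3.85% in Pogo, and all members together lie at 1.94%. All distinct regions lie at 3.54%, a sum in which the highest region alone holds 463 of 3023 RPM in nrpd1a.

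The most strongly covered members showed the loss most precisely. ATHATN7 on chromosome 5 (5128857 to 5129000), 439 bp downstream of AT5G15725, held 7.72% of the summed WT level of all members. It had 291 RPM in ddb2-3, 0.727 RPM or 1 read in nrpd1a and 307 RPM in WT, so nrpd1a was at 0.236% of WT (0.00598 to 1.32). ATTIR16T3A on chromosome 2 (12708801 to 12709100), 434 bp downstream of the glycosyltransferase gene UGT71C2, had 48.1 RPM in ddb2-3, no read in nrpd1a and 50.2 RPM in WT, at least 18.6-fold lower by the exact interval. TAG3N1 on chromosome 1 (22775901 to 22776400), 1181 bp upstream of TPS14, a terpene synthase gene, had 77.4 RPM in ddb2-3, no read in nrpd1a and 69.0 RPM in WT, at least 25.6-fold lower. TAG2 copy d was at least 20.4-fold lower. The TAG2 region near NRT2.2 had 0.671% of WT (0.0170 to 3.75).

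A few members kept several reads. The mixed region had the most, 10 reads or 7.27 RPM in nrpd1a against 110 RPM in WT, 6.61% (3.15 to 12.2). SIMPLEHAT2 upstream of JKD had 4 reads, 10.2% of WT (2.74 to 26.5). ATHPOGON1 in an intron of AT1G50060 (chromosome 1, 18551601 to 18551700) had 4 reads or 2.91 RPM in nrpd1a, 7.07 RPM in ddb2-3 and 6.76 RPM in WT, and its 43.0% of WT (11.2 to 119) could not be told from WT at this depth. ATENSPM2 on chromosome 1 kept 10.3% (2.10 to 30.8), ATENSPM6 on chromosome 4 (8959622 to 8959800) 20.1% (4.05 to 61.6) and SIMPLEGUY1 on chromosome 3 (18652201 to 18652300) 7.77% (1.59 to 23.1), each on 3 reads. SIMPLEHAT2 a and b also had 3 reads each, 2.03% (0.417 to 5.95) and 2.46% (0.505 to 7.22). No member exceeded its WT level in nrpd1a.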

How the data were processed

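Small RNAs had been sequenced from 3 seedling libraries, 1 each of ddb2-3, nrpd1a and WT. The tools named are CASAVA 1.8.2, bedtools and Bowtie, and the build TAIR10, per the submitters' processing notes. The authors deposited 18 tables, 6 per library, whose value is headed as small RNA RPM and whose rows are bisulfite regions, per the file headers. Nothing in the sources used here gives the mismatches allowed, the handling of multiple matches or the RPM denominator. The 24-nt length and methylation class are known from the tables' names only.

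Entries were collapsed to 4481 distinct regions by coordinates, and where regions overlap (18 members) reads count in each. The deposited RPM values were whole multiples of 1 step per library, and 100% came out as whole reads within 0.1 read. The count test on these reads, an exact binomial test with Benjamini-Hochberg adjustment at 0.05, called 867 regions higher and 315 lower in ddb2-3. Summed levels were compared without a pseudocount. Single regions were compared as log2(RPM + 1) at 2-fold, among regions of at least 1 RPM in a library. Fold bounds for a level of 0 are limits of the exact interval. With 1 library per genotype no genotype test is possible, and nothing says how many plants each library pooled. Centromeres were placed at the assembly gaps. Sequences, 24-mers (both strands, organelles included) and genes came from RefSeq TAIR10.1. Of 345 gene entries in the tables, 334 lay on the RefSeq gene of that name.

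Named regions were, per group, the highest in WT and, from 10 RPM, the 2 highest and 2 lowest in ddb2-3 ratio, every member past 2-fold in ddb2-3, the 5 with the lowest upper bound and the 10 with the highest level in nrpd1a, and members in coding exons, with examples of these given in the text. The other regions named (GA-containing, TAG2 and SIMPLEHAT copies, neighbouring windows) were chosen after their values were seen. The members and lists were chosen with earlier results of these data known. The size rule and intervals were tried on simulated reads, drawn independently for each region as Poisson counts. These reads held no variation between plants, no shift between libraries and no reads shared by copies. The trial therefore cannot show how the rule and intervals behave under these. Python 3.11.15, numpy 2.4.6, pandas 2.3.3, scipy 1.17.1 and matplotlib 3.10.9 were used. Alternatives were scaling, pseudocount, filters, the count test, and leaving out members.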

Additional observations from a re-analysis of the deposited data

How the results depend on the processing

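No paired analysis was possible because each genotype had 1 library. Of 63 alternative values, 22 kept their direction and stayed within the counting interval of the value reported or within 1.5 times the count, 36 moved beyond it and 5 reversed. For ddb2-3 against WT, scaling by the median ratio lowered the summed log2 ratio to 0.028 over all members, 0.23 in En/Spm, 0.11 in Harbinger, 0.21 in Pogo, -0.32 in Mariner, 0.24 in CHG-hyper, 0.23 in CHH-hypo (0.225 before rounding) and 0.33 in pericentromeric members, and reversed it to -0.048 in hAT, to -0.082 in the CHH-hyper class, to -0.15 (-0.152) for CHG-hypo members and to -0.15 (-0.155) in the arms, which follows from its fixed shift of 0.20. Without the GA-containing members, chosen after seeing the data, the sums were 0.14 over all members, 0.35 in En/Spm, 0.091 in Harbinger, 0.099 in Pogo and 0.33 (0.325) in pericentromeric members, and CHH-hypo reversed to -0.047. Without runs of 12 GA bases in either phase, also chosen after seeing the data, they were 0.090 over all members, 0.051 in hAT, 0.32 for CHG-hyper, 0.052 for CHH-hyper and 0.20 for pericentromeric members. Without the 3 members of highest mean RPM they were 0.27 over all members, 0.21 in hAT, 0.77 in CHH-hypo and 0.079 in arm members. The sum over all members was 0.18 without regions overlapping another and 0.34 over members with at least 90% unique 24-mers. The 21 members at least 2-fold higher became 48 with a pseudocount of 0.1 RPM, 9 with at least 10 RPM in a library, 13 under the scaling and 38 by the exact binomial test, and the 1 lower became 6, 0, 2 and 9. For nrpd1a against WT, the log2 ratio of -5.69 became -8.94 over members with at least 90% unique 24-mers, chosen after seeing the data, and that of CHH-hypo, -5.87, became -5.02 without ATHATN7, 1 of the 3 members of highest mean RPM. The 317 members lower became 113 with at least 10 RPM in a library, where only 113 were tested, and 188 with the floor, an alternative added after seeing the data. The exact binomial test called 223 lower (background 71.2%) and 0 higher (0.245%). The cause of the other moves was not tested. In nrpd1a, 1 read weighs 0.727 RPM, so 130 members had an interval that reached or passed WT.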
